A study of Mus musculus with 31 samples.

Results

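The expression of 36 mouse genes of glycolysis and of the response to low oxygen was followed in Ba/F3 cells expressing WT or R98S RPL10. The genes were chosen by symbol from a list, and 36 of 36 were among the 41255 symbols of both deposited tables. The list holds 2 glucose transporters, 16 glycolytic enzymes, 2 lactate transporters, 3 regulators of glycolytic flux, HIF-1α with 2 of its hydroxylases, and 10 other targets of the hypoxia-inducible factors. Ba/F3 is a mouse pro-B lymphoid line that needs IL-3 to grow. Every culture descended from a single cell, carried a retroviral human RPL10 cDNA, either WT or with the leukaemia-associated R98S change, and expressed an shRNA that lowered the endogenous Rpl10, so this knockdown was shared by both genotypes. The R98S clones were 11, 13 and 35 and the WT clones were 28, 29 and 36. The libraries carry replicate numbers 1, 2 and 3, and not every clone had a library of every number in each fraction. Total mRNA was available from 9 R98S and 8 WT cultures, and polysomal RNA, taken from sucrose gradient fractions with 2 or more ribosomes per mRNA, from 8 R98S and 6 WT cultures. The genotype was carried by 3 clones on each side, and the libraries of a clone share their source, so the p-values measure the spread between libraries.

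Glycolysis splits glucose into pyruvate in the cytosol, and lactate dehydrogenase turns pyruvate into lactate, which leaves the cell through monocarboxylate transporters. When oxygen is scarce, the prolyl hydroxylases that mark HIF-1α for degradation slow down, HIF-1α joins ARNT, and the pair binds DNA at a short core motif. Its known targets include most genes of glycolysis, and also genes of mitophagy, blood vessel growth, collagen modification and feedback on the pathway itself. Proliferating lymphoid cells use glycolysis heavily even in air.

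The promoters are shown here because most of the listed genes are known for this motif. Whether the motif plays a part in any difference described below was not tested. The core of the HIF binding site was searched as ACGTG or GCGTG on both strands, which also gives CACGT and CACGC, and a CACGTG holds 2 overlapping matches. In RefSeq promoters of GRCm38.p6, each running from 250 bases before to 50 bases after a start site, 33 of the 36 members had an entry, and the others were Slc2a3, Bnip3l and Ndrg1. Of their 51 promoters, some of which overlap, 39 held the motif (76.5%), against 43.8% of all 32851 promoters of this length. Among the members' promoters 54.9% held 2 or more matches, against 20.6% of all promoters. The list was made of genes known for this pathway, and the sets of promoters were not matched for base content or expression. At least 1 promoter with a match was present for 30 of the 33 members. The 200 bases before the start site are given for 2 enzymes, for a pair of hypoxia targets that rose by over 4-fold between replicate numbers, and for the pair of lactate transporters that differed in opposite directions between the genotypes. Capitals mark the motif, and each sequence reads 5′ to 3′ on the strand of its gene.
Pgk1 (chrX:106186900-106187099, plus strand): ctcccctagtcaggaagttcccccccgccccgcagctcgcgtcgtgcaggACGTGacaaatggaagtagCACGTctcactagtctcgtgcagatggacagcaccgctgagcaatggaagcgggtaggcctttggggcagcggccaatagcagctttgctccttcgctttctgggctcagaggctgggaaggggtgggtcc
Ldha (chr7:46845604-46845803, plus strand): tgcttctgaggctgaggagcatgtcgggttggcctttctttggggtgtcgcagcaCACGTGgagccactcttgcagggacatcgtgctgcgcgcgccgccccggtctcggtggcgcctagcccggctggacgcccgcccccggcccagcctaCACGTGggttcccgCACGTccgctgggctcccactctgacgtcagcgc
Bnip3 (chr7:138909507-138909706, minus strand): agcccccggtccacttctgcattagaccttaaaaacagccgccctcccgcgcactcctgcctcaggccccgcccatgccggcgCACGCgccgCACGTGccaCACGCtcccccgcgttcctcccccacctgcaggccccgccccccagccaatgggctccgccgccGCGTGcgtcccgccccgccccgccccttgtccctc
Ankrd37 (chr8:45999851-46000050, minus strand): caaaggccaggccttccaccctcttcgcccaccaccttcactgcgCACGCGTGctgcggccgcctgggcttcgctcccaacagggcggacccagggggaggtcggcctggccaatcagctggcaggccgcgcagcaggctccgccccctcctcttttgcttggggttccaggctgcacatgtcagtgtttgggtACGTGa
Slc16a1 (chr3:104638464-104638663, plus strand): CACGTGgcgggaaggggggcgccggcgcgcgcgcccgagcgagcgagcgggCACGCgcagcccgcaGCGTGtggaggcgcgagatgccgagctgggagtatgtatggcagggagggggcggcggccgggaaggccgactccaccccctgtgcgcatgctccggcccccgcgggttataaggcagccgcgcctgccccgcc
Slc16a3 (chr11:120948867-120949066, plus strand): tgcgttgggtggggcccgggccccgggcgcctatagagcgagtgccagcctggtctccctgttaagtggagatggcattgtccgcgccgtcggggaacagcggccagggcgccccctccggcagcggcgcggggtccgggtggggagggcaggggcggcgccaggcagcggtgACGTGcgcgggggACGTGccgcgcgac
Pgk1 and Ldha are phosphoglycerate kinase and lactate dehydrogenase A, Bnip3 is a mitophagy receptor, and Ankrd37 is an ankyrin repeat protein known as a strong hypoxia target. Slc16a1 (MCT1) and Slc16a3 (MCT4) are lactate transporters. The Ldha window held 5 matches in 3 places, and the Slc16a3 window held 2 matches close to its start site. A match is only a description of these letters.

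All values below are the deposited normalised read counts, which are read counts divided by a size factor per library. The 31 libraries held between 8831180 and 22059792 reads in genes. Of 12 early B-lymphoid and IL-3 receptor markers, 6 had a mean of at least 10, among them Ptprc, Csf2rb and Cd79a, while Pax5, Ebf1 and Rag1 were at or near 0 in every library. The summed level of this list was 110176 to 222357 in R98S and 56843 to 102239 in WT total mRNA, carried by the IL-3 receptor chains Csf2rb and Csf2rb2. Markers of fibroblasts summed to at most 12.03, those of T cells to at most 292, those of myeloid cells to at most 529 and those of erythroid cells to at most 979. Whether these differences play a part in the results below was not tested. In bulk RNA, fewer cells expressing a gene and less of its RNA per cell cannot be told apart. WT clone 36 of replicate number 1 was not analysed here in total mRNA, because the study left this library out for clustering with the R98S libraries. Counts are given with and without R98S clones 13 and 35 of number 2 in total mRNA. Over the measured members their mean log2(value + 1) was 12.23 and 12.25. Within number 2 this lay between R98S clone 11 at 11.73 and the WT libraries at 12.43 to 12.71.

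A mean of at least 10 was required for a test, and 32 of the 36 members passed in each fraction. The other 4 were barely present. Aldoc, the brain-type aldolase, had 2 to 16 reads per total mRNA library, Eno2, the neuronal enolase, had 0 to 4, and P4ha2, a collagen prolyl hydroxylase subunit, had 1 read in 1 of the 31 libraries. Egln3 (PHD3), a hydroxylase that hypoxia usually induces, had 0 reads in all 31 libraries. The values of the 32 measured members in each genotype are summarised in the plot of fold changes.

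**Figure D1:**
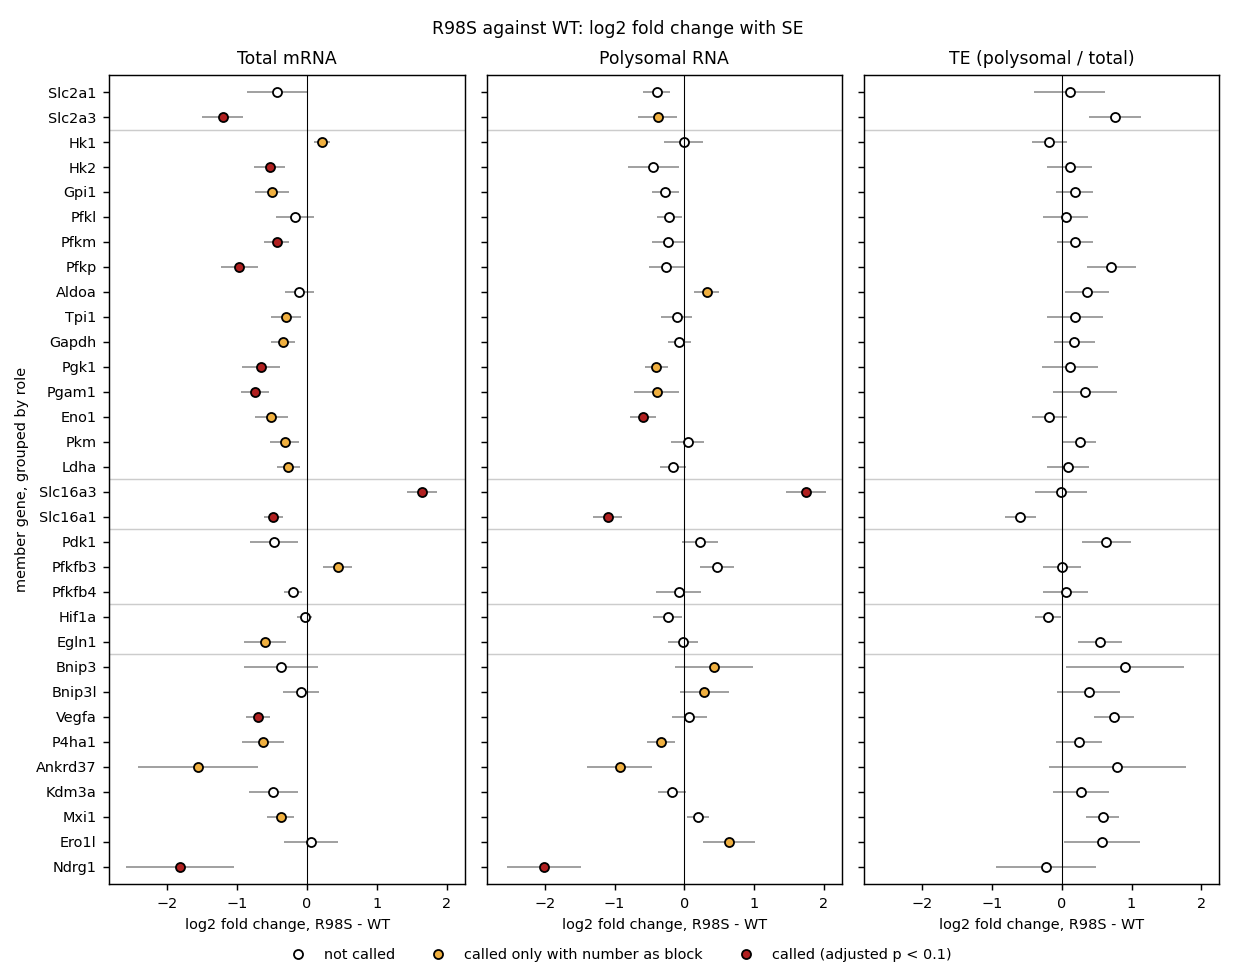
Log2 fold change of R98S against WT for the 32 measured members, on the log2(value + 1) scale, in total mRNA (9 R98S and 8 WT libraries), polysomal RNA (8 and 6) and the polysomal-to-total ratio (8 and 6 cultures). Points are fitted values with bars of 1 SE. Red points passed an adjusted p of 0.1 in the fit without a block. Orange points passed in the fit with the replicate number as a block but not without it, and white points passed in neither. In total mRNA 28 of the 32 points lie below 0, and Slc16a3 stands alone far above it.

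In total mRNA the members that passed the test were nearly all lower in R98S cells, the exception being a lactate transporter. Of 32 members tested, 9 were lower and 1 was higher at an adjusted p under 0.1 (limma, Benjamini-Hochberg over 11133 genes, two-sided). Over all genes 30.3% were called, 15.8% as lower. The number of members called in either direction is close to its background. The 9 of 32 called lower lie above theirs, and this difference was not tested. The median log2 fold change of the members was −0.43, against 0.00 for all genes, and 28 of the 32 values were below 0. With the replicate number as a block, which takes out differences shared by both genotypes, 22 members were called, 19 lower and 3 higher, against 38.4% of all genes called and 19.9% called lower. With all number 2 libraries left out of the blocked fit, 10 members and 3172 of all genes were called, a share of the members close to that of all genes. Within replicate number 1 the fold change of 24 of 32 members was below 0, within number 2 that of 28, and within number 3 that of 27, while 51.9%, 50% and 48.8% of all genes were below 0. Without the number 2 libraries of R98S clones 13 and 35, 21 members and 3806 of all 11133 genes were called. These 2 libraries were singled out for lying toward WT, and the fit without them has no block and keeps 1 R98S and 3 WT libraries of number 2, in which most members were highest. The sign was negative in all 3 numbers for 23 members and positive in all 3 for Hk1, Pfkfb3 and Slc16a3, as for 28.5% and 27.2% of all genes.

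The calls of Slc2a3, Pfkp, Pgam1, Vegfa and Slc16a1 described below were lost when the libraries of number 3 were left out, with adjusted p between 0.11 and 0.19, and that of Slc16a1 also without number 1 (0.12). All 5 calls were also lost in number 2 taken alone, that of Vegfa also in number 1 alone and that of Slc16a1 in number 3 alone, whereas Slc16a3 was called in every alternative run for total mRNA.

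Slc16a3 rose most. This transporter (MCT4, chr11:120948480-120960868, plus strand, GENCODE M21 on GRCm38) is the lactate exporter of strongly glycolytic cells. Its normalised read counts in R98S total mRNA were 84.8, 88.4 and 78.5 in clone 11 for numbers 1 to 3, 118, 61.9 and 114 in clone 13, and 84.6, 65.4 and 117 in clone 35. In WT they were 40.2, 13.7 and 21.3 in clone 28, 28.5, 23.2 and 34.0 in clone 29, and 29.1 and 40.6 in clone 36 for numbers 2 and 3. Every R98S library lay above every WT library, a separation that 3.53% of all genes showed. The fitted difference was 1.65 on the log2 scale (SE 0.21, adjusted p = 2.3e-05), a 3.13-fold rise. The gene was nonetheless scarce, with 57 to 169 reads in an R98S library and 8 to 46 in a WT library, and its level per kilobase of exon was 17.0 in R98S and 5.42 in WT.

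Slc16a1 (MCT1, chr3:104638668-104658462, plus strand), the widely expressed transporter that carries lactate in either direction, moved the other way. It ranged from 1674 over a median of 2090 to 3025 in the R98S libraries and from 2275 over 3023 to 4401 in the WT libraries. The groups overlapped, with 7 of 9 R98S libraries below every WT library. The difference was −0.49 (SE 0.14, adjusted p = 0.015), or 1.40-fold lower. Per kilobase of exon Slc16a1 remained far more abundant than Slc16a3 in both genotypes, at 495 in R98S and 701 in WT.

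**Figure D2:**
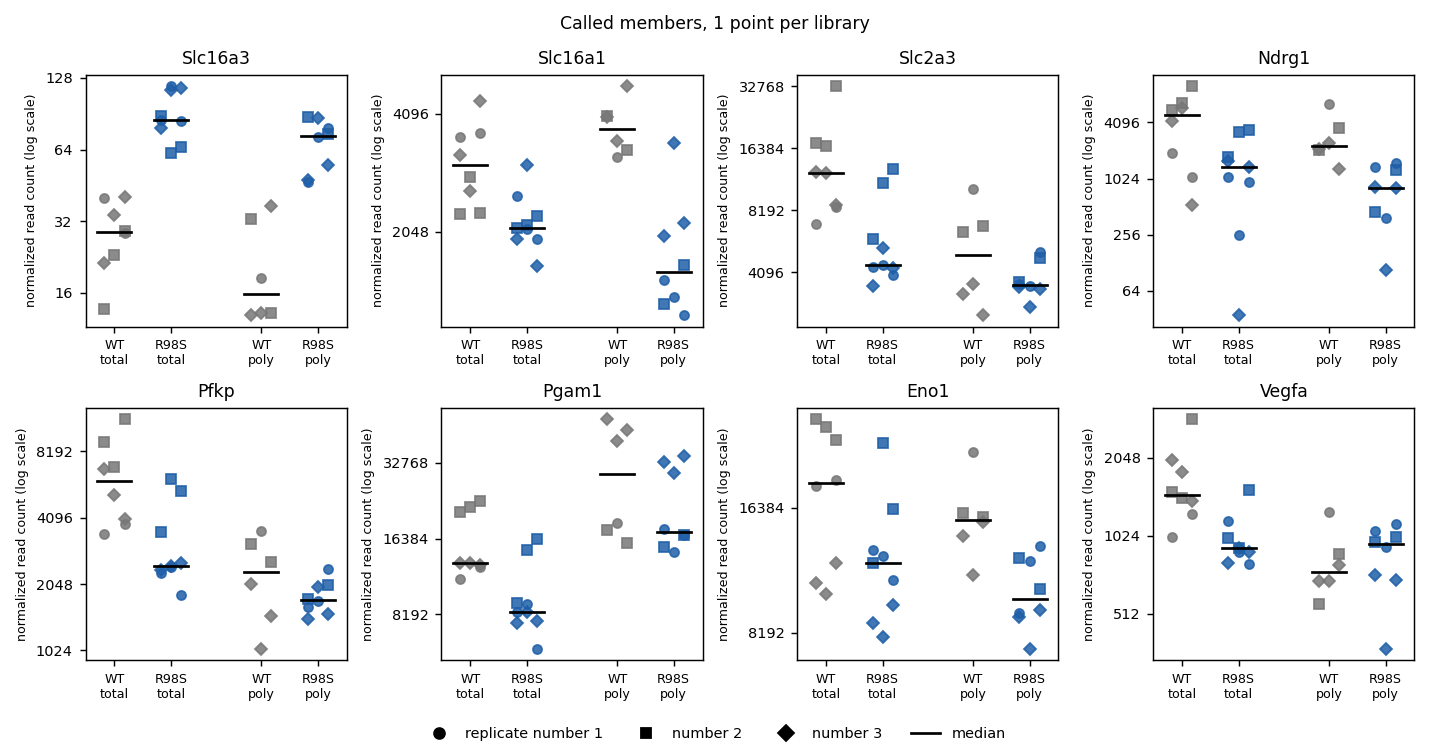
Normalised read counts (log axis) of Slc16a3, Slc16a1, Slc2a3, Ndrg1, Pfkp, Pgam1, Eno1 and Vegfa in every total mRNA and polysomal library, by genotype. Marker shape gives the replicate number and the bar is the median of the group. The Slc16a3 points of the genotypes do not overlap in either fraction, from 61.9 upward in R98S against at most 40.6 in WT in total mRNA, whereas those of the other genes overlap at least in part.

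Of the glucose transporters, Slc2a3 (GLUT3, chr6:122727809-122801640, minus strand), a high-affinity carrier, fell. It ranged from 3533 over a median of 4459 to 12931 in R98S and from 7061 over 12477 to 32793 in WT total mRNA. The groups met only through R98S clones 13 and 35 of number 2, at 11064 and 12931, and the other 7 R98S libraries lay below every WT library. The difference was −1.21 (SE 0.30, adjusted p = 0.0071), or 2.31-fold lower. Clone means were 4611, 6960 and 7067 for R98S clones 11, 13 and 35 and 12339, 12610 and 20740 for WT clones 28, 29 and 36, so all 3 R98S means were below all 3 WT means. The mean of WT clone 36 rests on numbers 2 and 3 alone, at 32793 and 8688. Slc2a1 (GLUT1), the basal glucose carrier, did not pass the test, with −0.43 (SE 0.43, adjusted p = 0.51) and 0.14 under the block. Per kilobase, Slc2a3 stood at 858 in R98S and 2007 in WT and Slc2a1 at 442 and 621.

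Among the 14 measured enzymes 5 fell and none rose in total mRNA, and with the replicate number as a block 11 fell and Hk1 rose. Of all genes 30.3% were called, and with the block 38.4% were called and 19.9% were called lower. The median enzyme stood at −0.39, and 13 of 14 values were below 0. Pfkp, the platelet-type phosphofructokinase of the committed step, ranged from 1836 over a median of 2465 to 6153 in R98S and from 3444 over 6000 to 11438 in WT. It fell by 0.97 on the log2 scale (SE 0.27, adjusted p = 0.013), with 6 of 9 R98S libraries below every WT library. Pgam1, the phosphoglycerate mutase, ranged from 6003 over 8416 to 16350 in R98S and from 11302 over 13120 to 23121 in WT. It fell by 0.75 (SE 0.20, adjusted p = 0.011), with 7 of 9 R98S libraries below every WT library. The clone means of both genes kept the genotypes apart, at 2739 to 3692 against 5328 to 7742 for Pfkp and at 8365 to 10732 against 15062 to 18016 for Pgam1. Here too the highest WT mean is that of clone 36, which has no library of number 1.

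The other 3 called enzymes lay nearer the threshold and overlapped more. Hk2, the inducible hexokinase, ranged from 2665 over a median of 3205 to 5682 in R98S and from 2824 over 5080 to 9076 in WT, a difference of −0.53 (SE 0.22, adjusted p = 0.090). Pfkm, the muscle-type phosphofructokinase, ranged from 384 over 755 to 941 and from 717 over 855 to 1404, a difference of −0.44 (SE 0.18, adjusted p = 0.085). Pgk1 ranged from 6800 over 12055 to 23197 and from 9151 over 18019 to 34003, a difference of −0.65 (SE 0.27, adjusted p = 0.091). For each of the 3 genes 3 R98S libraries lay below every WT library, so most libraries shared a range. The calls of Hk2, Pfkm and Pgk1 were each lost when either R98S clone 11 or WT clone 29 was left out, with adjusted p between 0.16 and 0.25. Other alternatives lost them too. Of 29 alternative fits, 20 called Hk2, 18 called Pfkm and 21 called Pgk1, with adjusted p up to 0.33, 0.25 and 0.27.

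A further 7 enzymes did not pass in the fit without the block but were called with the replicate number as a block. Those lower were Gpi1, glucose phosphate isomerase (−0.47, adjusted p = 0.012), Gapdh (−0.34, adjusted p = 0.016), Eno1, enolase 1 (−0.52, adjusted p = 0.0017), Pkm, pyruvate kinase (−0.33, adjusted p = 0.016), Ldha (−0.26, adjusted p = 0.061) and Tpi1, triosephosphate isomerase (−0.29, adjusted p = 0.096), and without the block their adjusted p ran from 0.12 to 0.33. Hk1, the constitutive hexokinase, was higher (0.22, adjusted p = 0.043, against 0.19 without the block). Some alternatives without the block also called Eno1, Gapdh, Gpi1 and Pkm. Of 29 alternative fits, those with the block included, 14 called Eno1, 11 Gapdh, 10 Gpi1, 9 Pkm, 6 Ldha, 5 Hk1 and 4 Tpi1. The counts of Ldha, Hk1 and Tpi1 do not show a call without the block. Pfkl and Aldoa, the liver-type phosphofructokinase and the main aldolase, had values of −0.17 and −0.11 and passed in neither fit. Per kilobase, Hk1 and Hk2 stood at 742 and 615 in R98S and at 644 and 916 in WT, so the order of the 2 hexokinase means differed between the genotypes, which was not tested. Several enzymes have near-identical copies in the genome. Of the 50-base windows of their exons, 53.9% of Pgk1, 36.2% of Pgam1, 26% of Eno1, 25.8% of Pkm and 24.7% of Gapdh also occur in other annotated genes, so reads could be shared with, or lost to, these copies.

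Of the 3 regulators of flux, none was called in total mRNA. Pfkfb3, a bifunctional enzyme that makes the activator of phosphofructokinase, had 0.44 (SE 0.21, adjusted p = 0.14) and was called higher with the block (0.39, adjusted p = 0.091). Pdk1, the kinase that shuts pyruvate dehydrogenase, had −0.47 (SE 0.35, adjusted p = 0.35), and Pfkfb4, a relative of Pfkfb3, had −0.20 (SE 0.13, adjusted p = 0.30).

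HIF-1α mRNA itself did not pass the test. Hif1a had −0.04 (SE 0.10, adjusted p = 0.84), with 1534 to 2440 in R98S and 1648 to 2580 in WT total mRNA. Egln1 (PHD2), the main oxygen-sensing hydroxylase and itself a HIF target, had −0.60 (SE 0.31, adjusted p = 0.17) and was called lower with the block (−0.54, adjusted p = 0.018).

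Of the 9 other HIF targets measured, 2 fell in total mRNA and 5 with the block, and 8 of 9 values were below 0 with a median of −0.48. Of all genes 15.8% were called lower, and 19.9% with the block. Vegfa, the vascular growth factor, ranged from 796 over a median of 915 to 1541 in R98S and from 1017 over 1471 to 2871 in WT. It fell by 0.71 (SE 0.17, adjusted p = 0.0067), or 1.63-fold, with 7 of 9 R98S libraries below every WT library. Ndrg1 (chr15:66929318-66969640, minus strand), a stress-responsive gene strongly induced by hypoxia, varied widely between libraries. It read 1059, 1738 and 1576 in R98S clone 11, 251, 3273 and 35.0 in clone 13, and 940, 3398 and 1358 in clone 35. In WT it read 1916, 5640 and 4257 in clone 28, 1069, 6619 and 5798 in clone 29, and 10100 and 536 in clone 36 for numbers 2 and 3. Its difference of −1.82 (SE 0.78, adjusted p = 0.099) was just past the threshold, and without R98S clone 13 it was −1.06 (adjusted p = 0.21). Of 29 alternative fits 15 called Ndrg1, with adjusted p up to 0.25. The very low values of clone 13 came from numbers 1 and 3.

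The called HIF targets with the block were joined by P4ha1, a collagen prolyl hydroxylase subunit (−0.57, adjusted p = 0.0032), Ankrd37 (−1.29, adjusted p = 0.019) and Mxi1, a MYC antagonist (−0.33, adjusted p = 0.042). Ndrg1 stayed called at 0.052. Without the block Ankrd37 had −1.56, below every member but Ndrg1, with an SE of 0.86 and an adjusted p of 0.20. Bnip3 and its relative Bnip3l had −0.38 and −0.09, Kdm3a, a histone demethylase, −0.48, and Ero1l, an oxidase of the endoplasmic reticulum, 0.06, and these 4 passed in neither fit. Exons of Ankrd37 overlap those of Lrp2bp on the other strand over 26.4% of their length and those of Bnip3 overlap Gm45507 over 22.3%, and the strand setting of the counting is not given in the sources used here.

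In polysomal RNA the lactate transporters had the smallest p-values of the members. At the same threshold 3 members were lower and 1 was higher, where 13.5% of all 10707 genes were called and 5.87% were called lower, so the number of members called is near that background. The median of the members was −0.17, against −0.02 for all genes, and 22 of 32 values were below 0. Of the 4 members called, Slc16a3, Slc16a1 and Ndrg1 were also called in total mRNA. Eno1 was not called there by the same fit, but was with the block and in some other alternatives.

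Slc16a3 in polysomal RNA read 46.8 and 47.7 in R98S clone 11 for numbers 1 and 3, 72.0, 88.0 and 86.6 in clone 13, and 79.0, 74.2 and 55.3 in clone 35. In WT it read 32.6 and 12.9 in clone 28 for numbers 2 and 3, 18.5, 13.2 and 13.2 in clone 29, and 37.0 in clone 36 for number 3. Here too no R98S library reached down to a WT library, as for 4.96% of all genes. The rise was 1.74 (SE 0.29, adjusted p = 8.0e-04), or 3.34-fold.

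Slc16a1 read 1545 and 1991 in R98S clone 11, 1397, 1340 and 3443 in clone 13, and 1255, 1680 and 2151 in clone 35. In WT it read 4039 and 4010 in clone 28, 3181, 3300 and 3481 in clone 29, and 4815 in clone 36. Only the number 3 library of R98S clone 13 entered the WT range. The fall was 1.10 (SE 0.21, adjusted p = 0.0031), or 2.15-fold.

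Ndrg1 ranged from 108 over a median of 820 to 1501 in R98S and from 1282 over 2302 to 6451 in WT polysomal RNA, with 6 of 8 R98S libraries below every WT library. It fell by 2.01 (SE 0.53, adjusted p = 0.024), or 4.02-fold. Its lowest value in each genotype came from clone 13 and clone 36 of number 3, in both fractions. Eno1 ranged from 7503 over 9883 to 13248 in R98S and from 11288 over 15363 to 22422 in WT, with 5 of 8 R98S libraries below every WT library. It fell by 0.59 (SE 0.18, adjusted p = 0.055). The Eno1 call was lost without number 1 or number 2 and without any one of the clones other than WT clone 36, with adjusted p from 0.11 to 0.21. It was also lost with no mean filter (0.14), with clone means (0.15), with quantile normalization (0.50) and in number 2 alone. The Ndrg1 call was lost without WT clone 29 (−1.45, adjusted p = 0.21) or number 2 (0.12), and with clone means. Of 28 alternative fits 25 called it.

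With the replicate number as a block, 13 members were called in polysomal RNA, 8 lower and 5 higher, against 30.9% of all genes called and 15.7% called lower. The added lower ones were Slc2a3 (−0.49, adjusted p = 0.072), Pgk1 (−0.39, adjusted p = 0.037), Pgam1 (−0.27, adjusted p = 0.097), P4ha1 (−0.43, adjusted p = 0.019) and Ankrd37 (−0.75, adjusted p = 0.021). The added higher ones were Aldoa (0.36, adjusted p = 0.061) and the HIF targets Bnip3 (0.64, adjusted p = 0.063), Bnip3l (0.43, adjusted p = 0.060) and Ero1l (0.70, adjusted p = 0.036). With the block the HIF targets therefore split in this fraction, with 3 lower and 3 higher. Without the block the limma adjusted p was 0.76 for Bnip3, 0.73 for Bnip3l and 0.36 for Ero1l. Of 28 alternative fits, those with the block included, 3 called Bnip3, 3 called Bnip3l and 4 called Ero1l as higher. On the lower side P4ha1 and Ankrd37 had 0.37 and 0.27 without the block and were called in 7 and 5 of the 28. Within numbers 1, 2 and 3 the fold change was below 0 for 23, 21 and 18 of the 32 members, against 46.6%, 52.8% and 52.3% of all genes. Number 1 held a single WT polysomal library, clone 29.

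The polysomal-to-total ratio asks whether a member's share on polysomes changed beyond its mRNA. It was taken per culture as log2 polysomal minus log2 total, and since each fraction was normalised on its own it is relative to the average gene. For the 14 matched cultures, 8 R98S and 6 WT, no member was called by limma with or without the block. DESeq2 and edgeR on the recovered reads also called 0 members. Over all 10627 genes 0.0376% were called, and 0.47% with the block. At an unadjusted p under 0.05 there were 3 members, against 633 of all genes, and with the block 8 members, against 1313 of all genes. The 3 without the block were Slc16a1, Vegfa and Mxi1, with differences of −0.59, 0.75 and 0.58. Their unadjusted p by limma were 0.015, 0.020 and 0.027, and their adjusted p were 0.74, 0.75 and 0.75.

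The sign of the ratio difference was positive for 26 of the 32 members with a median of 0.19, against 0.01 for all genes. With the block it was positive for 22 with a median of 0.14, against −0.0003 for all genes. Number 1 held 3 R98S and 1 WT of the matched cultures. The sign was uneven between replicate numbers, since the difference was below 0 for 18 members in number 1, 15 in number 2 and 7 in number 3. For Slc16a3 the difference was −0.01, with a 95% interval of −0.80 to 0.78, so a difference of that size either way was not detectable. For Slc2a3 it was 0.76 (95% interval −0.02 to 1.54) and for Pfkp 0.71 (−0.02 to 1.44). Both were above 0 in number 3 only. Within numbers 1, 2 and 3 the difference was −0.36, −0.14 and 1.41 for Slc2a3 and −0.12, −0.14 and 1.23 for Pfkp. Hk2 stood low on polysomes in every one of the 14 cultures, with a log2 ratio between −3.83 and −1.94, and its genotype difference was 0.12 (SE 0.33).

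More members differed between the replicate numbers than between the genotypes. In total mRNA 27 of 32 members differed between the 3 numbers (84.4%, limma F test with genotype in the model, adjusted p under 0.1), against 43.5% of all genes. The fit for genotype with the number as a block called 22 of 32. For 28 of 32 members number 2 was above number 1, with a median log2 difference of 0.83 against 0.01 for all genes, while number 3 differed from number 1 by a median of 0.08. All 14 measured enzymes were called and were highest in number 2. Of the other HIF targets 8 of 9 were called, the exception being Vegfa, and 9 of 9 were highest in number 2, with a median of 1.59. The median of the enzymes was 0.66, and the difference between these groups of genes was not tested. What distinguished the replicate numbers in the handling of the cultures is not given in the sources used here.

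Ankrd37 had the widest swing, 4.24 on the log2 scale or 18.9-fold from number 1 to number 2. Its means in numbers 1, 2 and 3 were 11.3, 156 and 41.4 in R98S and 13.7, 496 and 137 in WT. Bnip3 rose 4.36-fold, with R98S means of 3515 and 12454 and WT means of 3500 and 15798, and stood at 5468 and 6531 in number 3. Slc2a1 rose 4.67-fold, with R98S means of 690 and 2822 and WT means of 663 and 3741. Both genotypes took part in these rises, and the R98S mean was below the WT mean in number 2 for all 3 genes. The rise of Ndrg1 was 2.16 and that of Egln1 1.28 on the log2 scale. The genes that did not rise in number 2 were both lactate transporters, with −0.52 for Slc16a3 and −0.26 for Slc16a1, and both 6-phosphofructo-2-kinases, with −0.70 for Pfkfb3 and −0.11 for Pfkfb4. Of these 4, only Pfkfb3 differed between numbers by the test (adjusted p = 0.045).

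**Figure D3:**
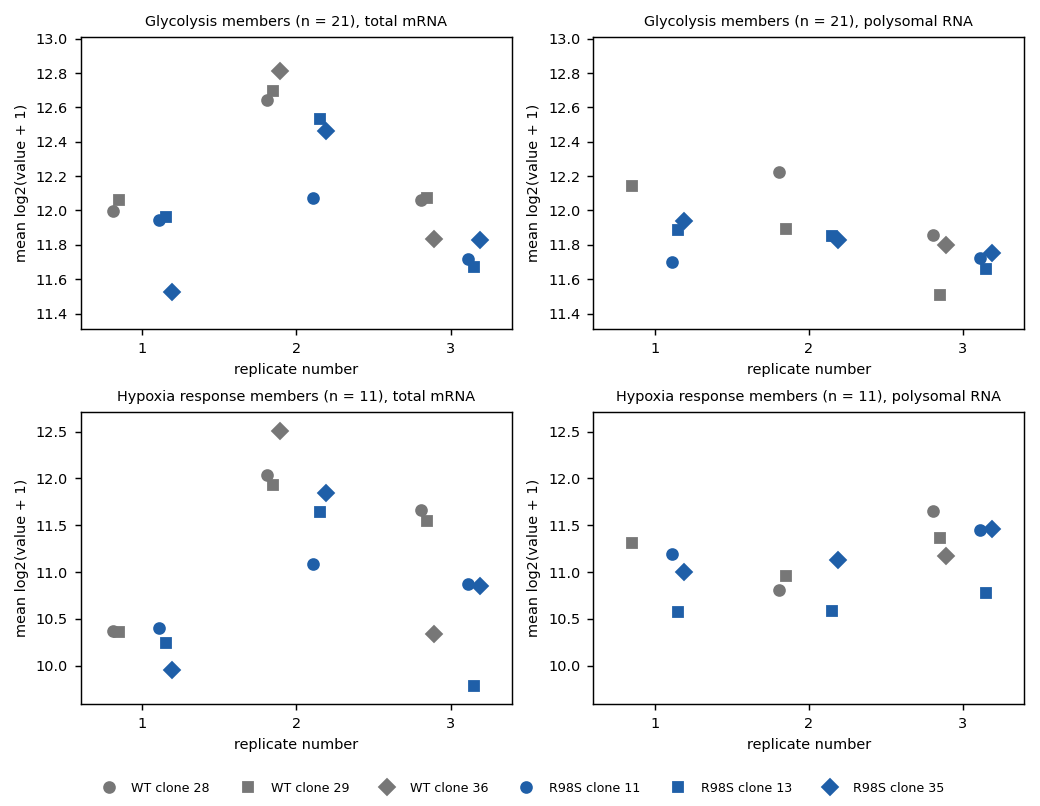
Mean log2(value + 1) of the 21 measured glycolysis members and the 11 measured hypoxia response members in each library, by replicate number, clone and genotype, for total mRNA and polysomal RNA. In total mRNA every library of number 2 lies above the libraries of numbers 1 and 3 of its own clone in both gene groups, and the hypoxia members reach 11.1 to 12.5 in number 2 against 9.96 to 10.4 in number 1.

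Within number 3 of total mRNA the hypoxia members did not agree between clones. R98S clone 13 and WT clone 36 had mean levels of 9.79 and 10.3, while the other 4 libraries lay between 10.9 and 11.7. Bnip3 was 2062 and 1825 in these 2 libraries against 6362 to 9476 in the other 4. The low library was thus found once in each genotype.

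In polysomal RNA the pattern across numbers was different. Of 32 members 21 differed between the numbers (65.6%), against 64.9% of all genes. The rise in number 2 was not seen, since the median difference from number 1 was −0.03 and 12 of 32 members were above it. Number 3 stood out for some genes, with Bnip3 at 1.86, Ankrd37 at 1.53, Bnip3l at 1.19, Pgam1 at 1.09 and Ero1l at 0.81 above number 1, and with Pfkfb4 at −1.13 and Hk1 at −0.999. Bnip3 in R98S averaged 11088, 11346 and 42079 in numbers 1, 2 and 3, and in WT 8464, 5397 and 27818. The polysomal libraries of number 3 also had larger normalised totals, 16404975 to 18467666 against 12382109 to 13546555 for numbers 1 and 2, and the part of this in the result was not tested. In the ratio, 30 of 32 members differed between numbers (93.8%), against 71% of all genes, and number 2 stood below number 1 by a median of 0.86.

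**Figure D4:**
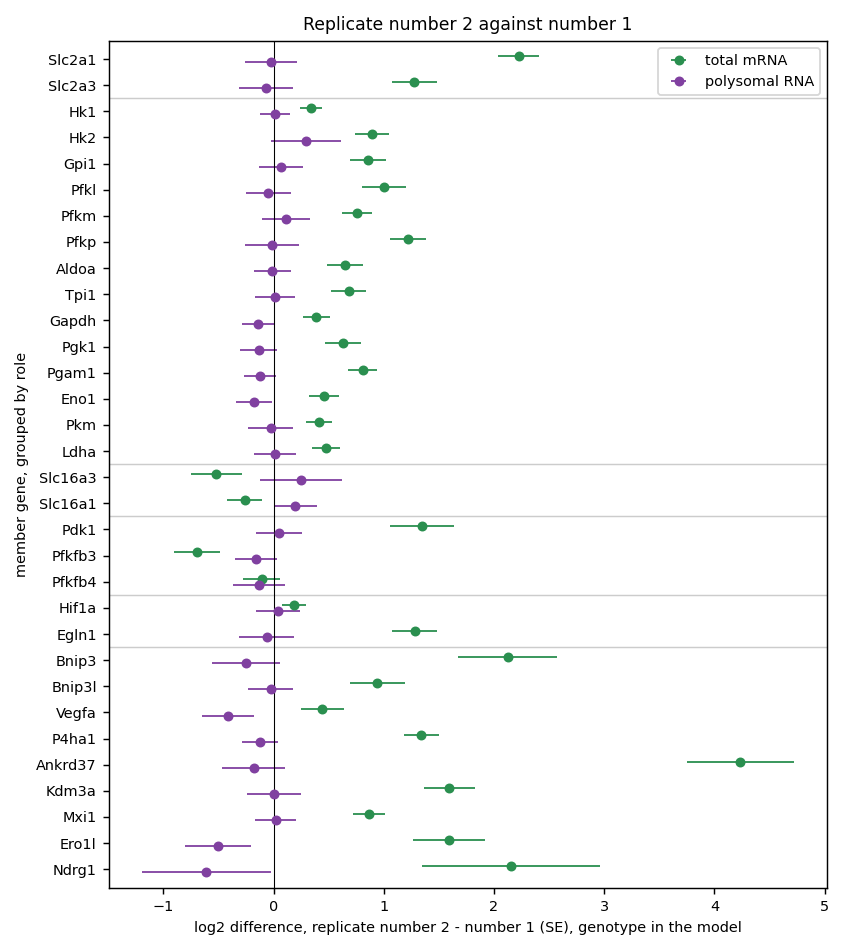
Log2 difference of replicate number 2 minus number 1 for the 32 measured members, with bars of 1 SE, in total mRNA and in polysomal RNA. Most total mRNA points lie above 0, up to 4.24 for Ankrd37, whereas the polysomal points lie around 0.

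Other genes of the pathways, from 5 lists of related genes, were read from the same fits, in which 30.3% of all genes were called in total mRNA and 13.5% in polysomal RNA. Of 15 further glycolytic genes measured, 1 was higher and 4 were lower in total mRNA, and 3 and 3 in polysomal RNA. Eno3, the muscle enolase, was lower in both fractions (−0.73, adjusted p = 0.0063, and −0.74, adjusted p = 0.058), while Slc2a6, a glucose transporter relative, was higher in both (0.80, adjusted p = 0.017, and 1.01, adjusted p = 0.013). Of 12 genes for the entry of pyruvate into mitochondria, 1 was higher and 1 lower in total mRNA and none was called in polysomal RNA. The lower one was Pdha1, a subunit of pyruvate dehydrogenase, with 2506 ± 309 (SD, n = 9) in R98S and 3309 ± 340 (SD, n = 8) in WT. Of 12 pentose phosphate genes, 2 were higher and 2 lower in total mRNA, and Taldo1, transaldolase, was the clearest, with 6126 ± 767 (SD, n = 9) against 3855 ± 502 (SD, n = 8) and an adjusted p of 6.2e-05 by limma. None of the pentose phosphate genes was called in polysomal RNA, where 4 of 12 had an unadjusted p under 0.05.

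Among 14 other components of the HIF pathway, 3 were lower and none was higher in total mRNA. Arnt, the partner of HIF-1α, had 1038 ± 198 (SD, n = 9) in R98S and 1610 ± 515 (SD, n = 8) in WT, with an adjusted p of 0.014 by limma. Siah2, a ubiquitin ligase acting on the hydroxylases, was also lower (−0.52, adjusted p = 0.0068). In polysomal RNA none of 13 was called and 3 had an unadjusted p under 0.05.

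Of 30 further genes known to be induced by hypoxia, 5 were lower and 3 higher in total mRNA, and 2 lower and 4 higher in polysomal RNA. S100a4, a calcium-binding protein, averaged 7.63 in R98S and 1609 in WT, and Rbpj, the Notch effector, was also lower (−0.88, adjusted p = 6.8e-04). Car9, carbonic anhydrase 9, was higher in R98S (0.77, adjusted p = 0.0035), as was Kctd11 (0.70, adjusted p = 6.8e-04). The genes of this list also followed the replicate number in total mRNA, with 23 of 30 called, against 43.5% of all genes, and a median rise of 0.87 from number 1 to number 2.

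With the replicate number as a block, which raised the share of all genes called to 38.4% in total mRNA and 30.9% in polysomal RNA, these lists gave other counts. Of the 30 further hypoxia-induced genes, 3 were higher and 11 lower in total mRNA, and 5 higher and 8 lower in polysomal RNA. Of the other HIF pathway components, 4 of 14 were called in total mRNA and 3 of 13 in polysomal RNA, all as lower. The 15 further glycolytic genes gave 2 higher and 4 lower in total mRNA and 3 and 3 in polysomal RNA. Of the 12 genes for pyruvate entry, 2 were higher and 2 lower in total mRNA, and 1 and 2 in polysomal RNA. The 12 pentose phosphate genes gave 3 higher and 2 lower in total mRNA, and 3 and 3 in polysomal RNA, where none had been called without the block.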

How the data were processed

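Total mRNA and polysomal RNA of R98S and WT Ba/F3 clones were sequenced from stranded libraries. Per the study's methods and processing notes, the authors removed 1 leading base and rRNA and tRNA reads, aligned with TopHat2 2.0.11 to mm10, kept alignments of mapping quality 10 or more and counted with HTSeq, and the annotation is not given in the sources used here. The deposited values are a count-based signal, read counts divided by DESeq2 size factors, with each fraction normalized on its own, and all values came out as whole reads within 0.1 read. Columns of per-sample values not used numbered 0.

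Each fraction was fitted with limma 3.58.1 in R 4.3.3 on log2(value + 1) for genes averaging 10 or more, and the ratio on the 14 matched cultures. Calls are two-sided at a Benjamini-Hochberg adjusted p under 0.1, and a fold change understates low genes. The members and lists were chosen with earlier results of these data known. All members are named, with values per library or lowest, median and highest for those called, and from other lists at most the 4 genes with the smallest adjusted p in each fraction. The labels' replicate numbers pair the samples, since deviations of same-numbered R98S and WT libraries correlated for every number (total mRNA 0.62, 0.55, 0.48, polysomal RNA 0.70, 0.67, 0.87, ratio 0.67, 0.54, 0.81). The fits were tested on simulated data before use. DESeq2 1.42.0 and edgeR 4.0.16 on the recovered reads, other pseudocounts, filters and scalings, clone-level fits and left-out libraries were the alternatives. The replicate block fits with a clone or number 2 left out, and the F test of the number, were added after seeing the data. Replicates differed by more than counting noise.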

Additional observations from a re-analysis of the deposited data

Results flagged for a closer look

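Among 192 groups of member values with 4 to 10 libraries, 5 held a library far from the others of its group, where chance gives about 1 in 20. Slc2a3 in total mRNA was 32793 in WT clone 36 of number 2, against 7061 to 17443 in the other WT libraries. R98S clone 35 of number 2 was high in total mRNA for Vegfa, at 1541 against 796 to 1166, and for Ero1l, at 33482 against 7242 to 17756. Slc16a1 in polysomal RNA was 3443 in R98S clone 13 of number 3, against 1255 to 2151 in the other R98S libraries. The log2 polysomal-to-total ratio of Slc2a3 was 0.28 in WT clone 29 of number 1, the lone WT culture of that number, against −1.95 to −1.29 in the other WT cultures. The R98S against WT difference of the ratio differed between replicate numbers for Slc2a3 (interaction in limma, adjusted p = 0.079) and Hk2 (adjusted p = 0.059), where 82 of 10627 genes passed.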

How the results depend on the processing

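The reported counts of members called were 10 for total mRNA, 4 for polysomal RNA and 0 for the ratio. In total mRNA the members called numbered 22 with the replicate block, 23 with clone means (3134 of all genes), 21 without the number 2 libraries of R98S clones 13 and 35 (3806 of all genes), 6 with no mean filter, 2 in number 2 alone and 6 in number 3 alone. Leaving out a replicate number or clone gave 3 to 9 members, leaving out a clone under the replicate block gave 16 to 22, and leaving out number 2 under the replicate block gave 10 (3172 of all genes). Over all genes the left-out fits without the block gave 1338 to 3003 calls, a clone left out under the block 2847 to 4159, and numbers 1, 2 and 3 alone gave 1366, 241 and 1047. In polysomal RNA the members called were 13 with the replicate block, 2 with clone means, 2 to 10 with a number or clone left out, 8 to 11 with a clone left out under the replicate block, and 7 without number 2 under the replicate block (3135 of all genes). Over all genes polysomal RNA gave 3307 with the replicate block, 742 with clone means, 608 to 2037 with a number or clone left out, 2474 to 3434 with a clone left out under the block, 321 in number 2 alone and 2234 in number 3 alone. For the ratio, all-gene calls of 4 became 2 with a pseudocount of 5, 1 with TMM scaling, 1 with quantile normalization, 38 with DESeq2, 1 with edgeR, 50 with the replicate block, 46 without number 2 under the block, 5 to 860 with a clone left out under the block (860 without WT clone 29), 0 with clone means, 80 with clone as a random effect, 1 without those number 2 libraries, 25 in number 3 alone and 0 to 64 with a number or clone left out, the 64 without WT clone 29. Members called in the ratio were 1 in number 3 alone and 3 without WT clone 29 under the replicate block. DESeq2 called 15 and 5 members in total mRNA and polysomal RNA (3555 and 1909 of all genes), and edgeR 10 and 4 (3321 and 1450). No call changed direction in any of these fits. Number 1 alone was not run for polysomal RNA or the ratio, since it has a single WT library. The causes of these shifts were not tested.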
